A study of Mus musculus with 32 samples.

Results

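The Gadd45 family of the mouse holds Gadd45a, Gadd45b and Gadd45g, 3 of the 55573 genes in the deposited count table, found there by gene symbol. The study grew primary hippocampal neurons on porous membrane inserts so that neurites could be collected apart from the cell bodies, and asked which RNAs are localized to neurites, what depolarization changes, and what the loss of N6-methyladenosine (m6A) changes. RNA-seq covered 16 libraries in 8 groups of 2: soma and neurites, wild-type (WT) and Mettl3 KO neurons, untreated (Ctrl) and KCl-treated. DART-seq, which maps m6A by the editing of nearby cytosines, gave site lists and scores that are used here for the family as well.

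The neurons came from newborn pups of both sexes, with the tissue of a litter pooled, and the study's methods take the 2 replicates of a group from distinct litters. WT neurons were C57BL/6 and Mettl3 KO neurons were Mettl3Flox/Flox (Mettl3-/-). All groups, WT included, had received an AAV with Cre and dTomato under the neuronal hSyn promoter at 7 days in vitro, at 50000 viral genomes per cell, so glia in these cultures were not the target of the deletion. All neurons, Ctrl included, were silenced with 1 µM TTX and 50 µM D-AP5 from day 14 for 16 h, and KCl-treated neurons then received 55 mM KCl for 2 h before harvest at day 15. Neurites were scraped from the underside of the membrane. The soma fraction came from the upper side, where neurites that did not cross the membrane remain, so a difference between the fractions is not a difference between pure compartments.

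GADD45 proteins are small acidic nuclear and cytoplasmic proteins without a known enzymatic activity of their own. They act by binding partners: the kinase MAP3K4 upstream of p38 and JNK, the cell cycle proteins CDK1, cyclin B1, PCNA and p21, and factors of active DNA demethylation and repair. Gadd45a is a classical p53 target that is induced by DNA damage. In neurons, Gadd45b is known as an activity-induced immediate early gene linked to DNA demethylation at promoters of growth factor genes, and Gadd45g is likewise induced by neuronal activity.

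All 3 genes are protein-coding in GRCm38. Gadd45a (ENSMUSG00000036390) lies on the minus strand of chromosome 6 from 67035096 to 67037457, Gadd45b (ENSMUSG00000015312) on the plus strand of chromosome 10 from 80930073 to 80932204, and Gadd45g (ENSMUSG00000021453) on the plus strand of chromosome 13 from 51846678 to 51848468. The coding sequences are related but not near-identical: Gadd45b and Gadd45g were identical at 70.5% of 458 aligned bases, Gadd45a and Gadd45g at 68.5% of 463, and Gadd45a and Gadd45b at 66.9% of 462. Reads that map to several places were counted by the authors. No stretch of 50 bases in the transcripts of Gadd45b or Gadd45g occurred in a transcript of another gene, on either strand. In Gadd45a, 290 of 1858 such stretches were shared with E230016M11Rik, which overlaps it on the opposite strand. No strand setting is given for the counting, so reads from the overlap cannot be told apart, and the Gadd45a values carry that uncertainty.

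Gadd45b and Gadd45g were the members that rose together after KCl, so the sequence just before each gene is shown, with that of Gadd45a beside it. The windows are from RefSeq, build GRCm38.p6, written 5′ to 3′ on the strand of the gene and ended before the first annotated base. Gadd45a is chr6:67037458-67037657 on the minus strand, Gadd45b is chr10:80929841-80930072 on the plus strand and Gadd45g is chr13:51846425-51846674 on the plus strand. Capitals mark matches to the motifs described next.
Gadd45a: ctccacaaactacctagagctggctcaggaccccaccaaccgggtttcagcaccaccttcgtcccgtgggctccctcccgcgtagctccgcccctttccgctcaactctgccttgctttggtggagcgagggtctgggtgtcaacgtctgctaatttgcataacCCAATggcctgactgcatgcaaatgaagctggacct
Gadd45b: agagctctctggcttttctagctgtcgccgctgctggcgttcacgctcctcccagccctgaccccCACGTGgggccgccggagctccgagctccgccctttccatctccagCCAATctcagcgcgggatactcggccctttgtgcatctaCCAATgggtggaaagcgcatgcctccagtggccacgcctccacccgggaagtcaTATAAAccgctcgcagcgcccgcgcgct
Gadd45g: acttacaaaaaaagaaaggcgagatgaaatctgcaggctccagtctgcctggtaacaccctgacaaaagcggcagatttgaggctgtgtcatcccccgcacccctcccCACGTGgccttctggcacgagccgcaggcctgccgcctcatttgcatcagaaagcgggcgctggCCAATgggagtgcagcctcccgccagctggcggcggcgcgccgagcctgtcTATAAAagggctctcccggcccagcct

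Motifs were searched on both strands of the 300-base RefSeq promoter windows (250 bases before and 50 after the RefSeq start) of the 3 members and of all 32817 promoters. The cAMP response element TGACGT, its core TGACG, the AP-1 motif TGANTCA and the CArG box of serum response factor matched in none of the members' windows, against 7.51%, 20.8%, 7.81% and 1.63% of all promoters. TGACG is contained in TGACGT. The EGR-type motif GTGGGCG matched once, in Gadd45g, in the part after the start that is not shown, against 7.97% of all promoters. After the sequences had been read, 3 motifs were added: TATAAA, then the E-box CACGTG, and as the last CCAAT, the CAAT box. The first, TATAAA, matched in Gadd45b and Gadd45g, with its first base at −46 and −27 from the RefSeq start, against 13.6% of all promoters, and CACGTG in the same genes at −185 and −142, against 7.15%. CCAAT matched in all 3 members, against 37.4% of promoters. These matches are letters in a window, and binding was not measured.

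The libraries held between 33789183 and 71394235 counts. PCR copies may be among the counted fragments, so counts are not independent molecules. Neuronal markers were expressed in every library, and no gene of the neuron list was at 0. Mettl3 was lower in each Mettl3 KO group than in the matching WT group without overlap, at 8.93 and 10.97 CPM (TMM-scaled counts per 1000000) against 16.7 and 16.1 in Ctrl soma and 3.91 and 6.76 against 12.002 and 12.4 in Ctrl neurites, although neither difference passed the test over all genes (edgeR adjusted p = 0.624 and 0.423). These counts cover the whole gene, and the deleted part was not looked at separately. Among the Mettl3 KO libraries, 3 stood apart. KCl-treated Mettl3 KO insert 1 had astrocyte markers (8 genes) summing to 9492 CPM in soma and 18618 in neurites, against 1007 to 5965 in all other libraries, oligodendrocyte lineage markers (9 genes) at 3810 and 7648 against 58.9 to 192, microglial markers (7 genes) at 236 and 173 against 10.4 to 34.7, fibroblast and vessel markers (8 genes) at 111 and 713 against 11.1 to 79.2, and neuronal markers (10 genes) at 2092 and 2067 against 4373 to 12948. Ctrl Mettl3 KO soma replicate 2 correlated with the other libraries at a median r of 0.853, against 0.921 or more in the libraries other than these 3. The KCl responses of Gadd45b and Gadd45g in Mettl3 KO are given with and without these 3 libraries. Other results that rest on these libraries are given with them, and some also with libraries left out.

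KCl raised Gadd45b and Gadd45g in WT soma and in WT neurites, and Gadd45g far more than Gadd45b, whereas Gadd45a did not rise. Gadd45g increased 37.2-fold in soma and 30.7-fold in neurites, and Gadd45b 8.89-fold and 5.18-fold. For Gadd45a the estimates were below 1 in both compartments and did not pass the test. A KCl response was called at 2-fold or more with p, after Benjamini-Hochberg adjustment over all genes, no higher than 0.05, in an edgeR fit to the 8 WT libraries.

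Gadd45g measured 26.5 and 25.4 CPM in Ctrl soma and 1102 and 935 CPM in KCl-treated soma. In neurites it measured 24.0 and 26.3 CPM in Ctrl and 742 and 759 CPM after KCl. The Ctrl and KCl libraries were thus separated by a wide gap in both compartments, while the 2 libraries within a group lay close to each other. The log2 change was 5.22 in soma (standard error 0.13, adjusted p = 5.06e-09) and 4.94 in neurites (standard error 0.13, adjusted p = 1.73e-08). In soma, Gadd45g ranked 3 by p among 24060 genes tested and 32 by rise among those called, and Gadd45b ranked 50 and 153.

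Gadd45b measured 16.4 and 17.2 CPM in Ctrl soma and 146 and 168 CPM in KCl-treated soma. In neurites the values were 12.97 and 17.4 CPM in Ctrl and 67.1 and 85.8 CPM after KCl. Again no Ctrl library reached a KCl library, and within KCl the soma values exceeded the neurite values. In bulk samples, fewer cells of a type and less RNA per cell cannot be told apart, and in WT soma the neuronal markers summed to 5050 to 5397 CPM in Ctrl and 6085 to 6574 after KCl, and the astrocyte markers to 1007 to 1026 and 1461 to 1499, shifts whose part in the changes was not tested. The log2 change was 3.15 in soma (standard error 0.17, adjusted p = 1.09e-06) and 2.37 in neurites (standard error 0.17, adjusted p = 1.78e-05).

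Gadd45a was low throughout. It measured 4.16 and 3.65 CPM in Ctrl soma and 2.64 and 2.24 CPM after KCl, and 2.52 and 2.10 CPM in Ctrl neurites and 1.77 and 2.29 CPM after KCl. In soma both KCl libraries were below both Ctrl libraries, and in neurites the groups overlapped. The log2 change was −0.76 in soma (standard error 0.23, adjusted p = 0.0524), which is short of 2-fold and of the p threshold, and −0.16 in neurites (standard error 0.24, adjusted p = 0.753). In neurites it turned to 0.03 without WT KCl neurite replicate 1. These values rest on 70 to 337 counts per WT library.

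In WT soma, 2 of the 3 members were thus called higher, against 3.74% of all genes tested, and none was called lower, against 2.96%. In WT neurites 2 of 3 were called higher, against 3.33%, and none lower, against 1.7%. Among 21855 genes tested in both compartments, 832 were called higher in soma and 732 in neurites, and 575 were called in both (69.1% of the first list and 78.6% of the second), Gadd45b and Gadd45g among them. Fitted together with the more variable Mettl3 KO libraries, the Gadd45b rise in neurites had a log2 change of 2.33 and was not called (adjusted p = 0.0833).

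**Figure D1:**
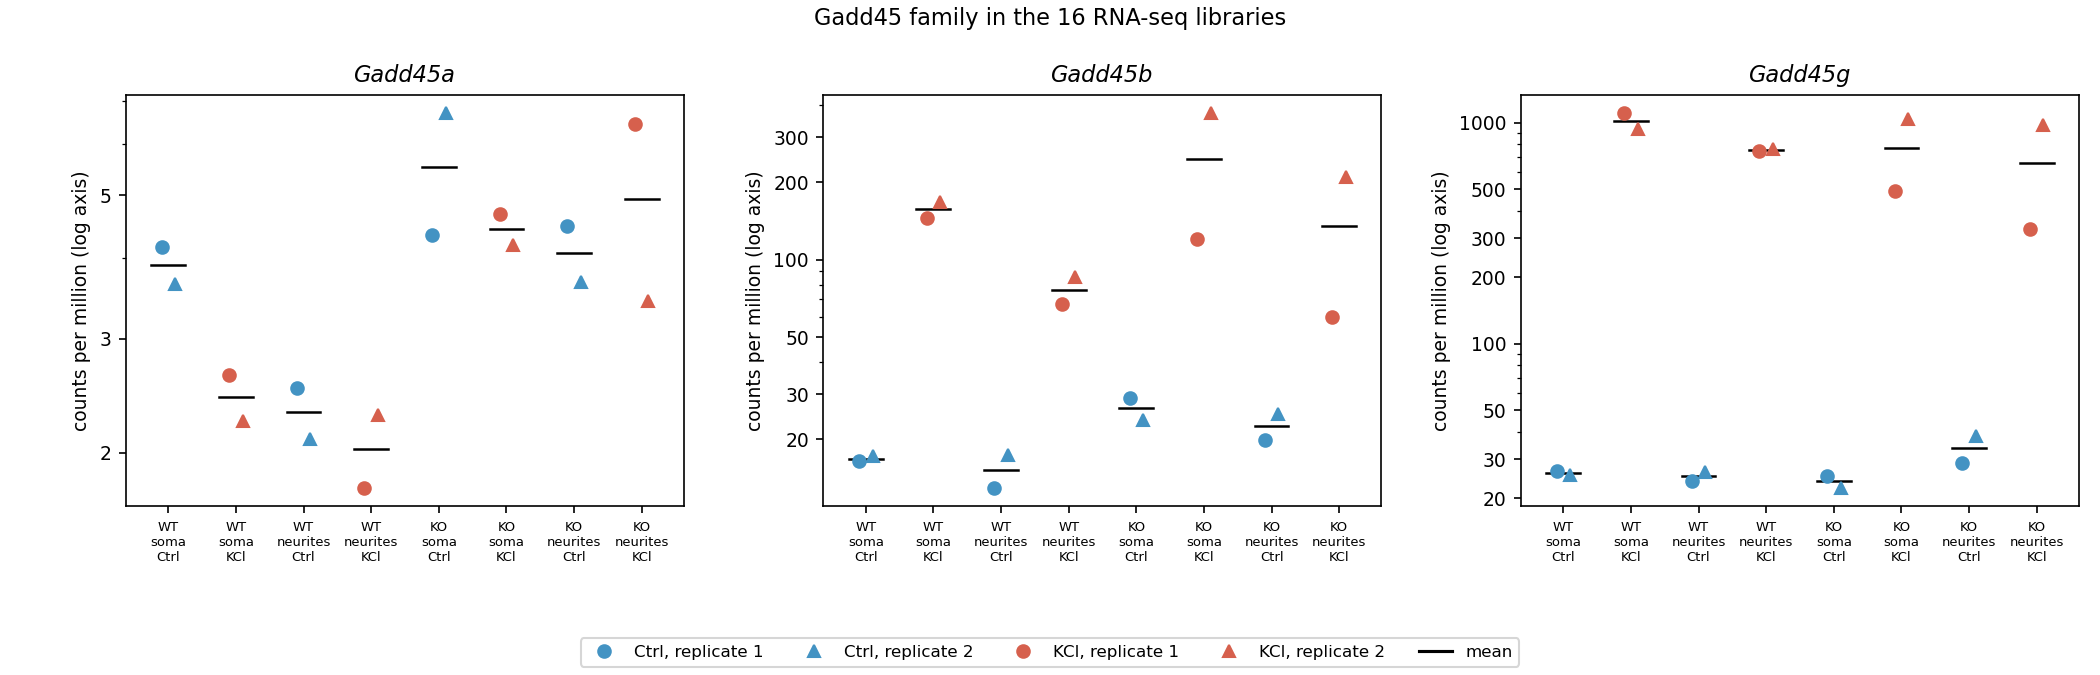
CPM (TMM-scaled, log axis) of Gadd45a, Gadd45b and Gadd45g in each of the 16 RNA-seq libraries. Circles are replicate 1, triangles replicate 2, and black lines the group mean. All 8 KCl libraries of Gadd45g (330 to 1102 CPM) and of Gadd45b (60.0 to 372 CPM) lie above all 8 Ctrl libraries (22.4 to 38.3 and 12.97 to 28.8 CPM), and those of Gadd45a overlap.

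Levels of different genes can be compared only per length, here as FPKM (fragments per kilobase of exon, on the CPM scale, computed from the counts and the deposited exon lengths). In Ctrl WT libraries the family summed to between 30.02 and 35.3 FPKM, of which Gadd45g made up 62.7% to 68.1%, Gadd45b 27.2% to 31.7% and Gadd45a 3.45% to 6.69%. The order Gadd45g, Gadd45b, Gadd45a held in all 16 libraries. In KCl-treated WT libraries the sum was 676 to 1033 FPKM, Gadd45g made up 88.1% to 93.6%, Gadd45b 6.24% to 11.7% and Gadd45a 0.140% to 0.184%. The ratio of Gadd45g to Gadd45b FPKM was 2.01 to 2.50 in Ctrl and 7.52 to 15.0 after KCl in WT. By FPKM, Gadd45g moved from rank 2628 to 3155 of 55536 genes in Ctrl WT libraries to rank 32 to 76 after KCl.

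**Figure D2:**
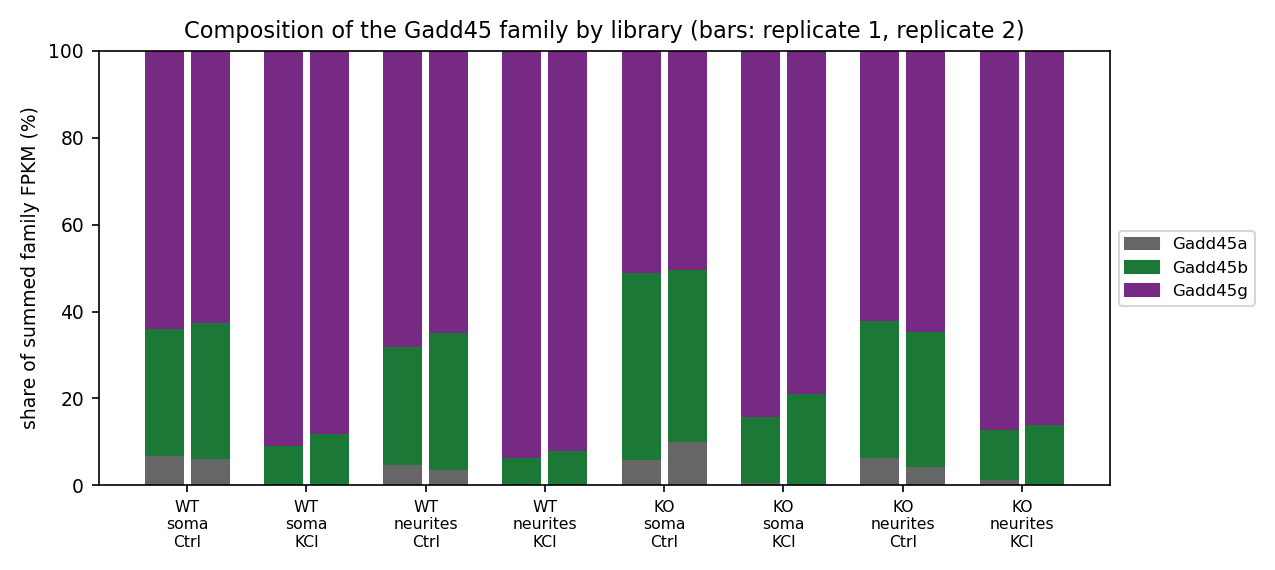
Share of each member in the summed FPKM of the family (percent, linear axis from 0) in each library, with replicate 1 and replicate 2 side by side for each group. Gadd45g takes 62.7% to 68.1% of the sum in Ctrl WT libraries and 88.1% to 93.6% after KCl, and Gadd45a is at most 10.01% in any library.

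After KCl, Gadd45b was lower in neurites than in soma of WT neurons by 2.04-fold, and Gadd45g by 1.34-fold. In Ctrl neurons neither difference passed the test, and Gadd45a was 1.80-fold lower in neurites. In this comparison, as in the others below, a gene was called at 1.5-fold or more. Gadd45a had a log2 difference between neurites and soma of −0.85 in Ctrl (standard error 0.23, adjusted p = 0.0290), with neurites at 2.52 and 2.10 CPM below soma at 4.16 and 3.65. The call did not survive the removal of Ctrl soma replicate 1, Ctrl soma replicate 2 or Ctrl neurite replicate 2 (adjusted p = 0.252, 0.158 and 0.114). In the same Ctrl comparison the log2 difference was −0.24 for Gadd45b (standard error 0.17, adjusted p = 0.329) and −0.14 for Gadd45g (standard error 0.11, adjusted p = 0.393). Thus 1 of 3 members was called lower in Ctrl neurites, against 4.54% of genes tested, and none higher, against 9.01%.

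In KCl-treated WT neurons Gadd45b had a log2 difference of −1.03 (standard error 0.16, adjusted p = 0.00320), and both neurite libraries were below both soma libraries. Without KCl neurite replicate 1 the difference was −0.87 and the adjusted p 0.0509. Gadd45g passed the p threshold but not 1.5-fold, with a log2 difference of −0.42 (standard error 0.11, adjusted p = 0.0288). Gadd45a was at −0.24 (standard error 0.24, adjusted p = 0.538). The count was 1 of 3 members lower, against 2.73% of genes tested, and none higher, against 6.87%. With all 16 libraries in the fit no gene was called in either treatment. Marker sums also differed between the fractions: in Ctrl WT neurons astrocyte markers summed to 1807 to 2745 CPM in neurites and 1007 to 1026 in soma, and neuronal markers to 10796 to 12948 and 5050 to 5397. After KCl they summed to 2107 to 2490 and 1461 to 1499 CPM for astrocytes, and to 10900 to 11849 and 6085 to 6574 for neurons. Camk2a, at 726 to 7716 CPM over all libraries, is on the neuronal list. The paper places this mRNA among those most enriched in neurites, so the neuronal sum does not measure cell makeup alone. The part of cell makeup in the neurite-to-soma differences of the members was not tested.

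The KCl change in neurite enrichment asks whether the neurite-to-soma ratio moved with KCl, or equally whether the KCl response differed between the fractions. It was fitted with a term for each insert and called at 1.5-fold when the unadjusted p was 0.05 or less. For Gadd45b the neurite-to-soma ratio of CPM was 0.790 and 1.02 in the 2 Ctrl inserts and 0.459 and 0.510 in the 2 KCl inserts. Both KCl inserts were below both Ctrl inserts, and the log2 change in enrichment was −0.78 (standard error 0.19, unadjusted p = 0.00285, adjusted p = 0.999). For Gadd45g the ratio was 0.905 and 1.04 in Ctrl and 0.674 and 0.812 after KCl, a log2 change of −0.28 (standard error 0.19, unadjusted p = 0.170). For Gadd45a the log2 change was 0.60 (standard error 0.36, unadjusted p = 0.130). By the unadjusted rule 1 of 3 members was lower, against 1.35% of genes tested, and none higher, against 2%. No gene passed at an adjusted p (edgeR, 0 of 23200, with 465 higher and 314 lower at an unadjusted p, or 343 and 447 with RLE scaling, and 219 and 279 unadjusted by DESeq2). Without Ctrl neurite replicate 2 the unadjusted p of Gadd45b was 0.0589, with a log2 change of −0.60.

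**Figure D3:**
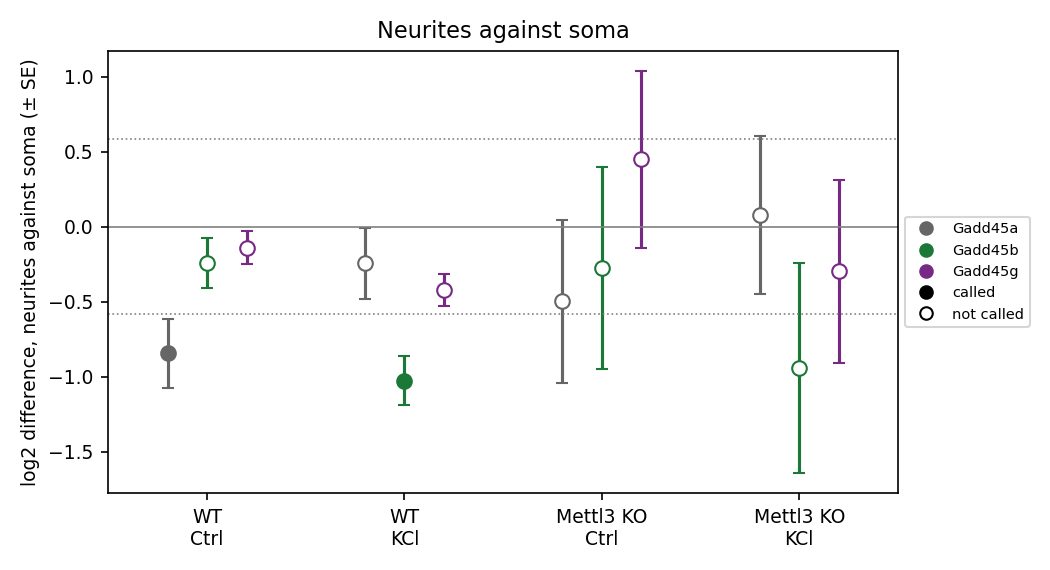
Log2 difference between neurites and soma for the 3 members in WT and Mettl3 KO neurons, Ctrl and KCl, from edgeR. Points are estimates, bars their standard errors, filled points are called, and dotted lines mark 1.5-fold. The called points are Gadd45a in WT Ctrl (−0.85) and Gadd45b in WT KCl (−1.03), and the standard errors in Mettl3 KO are wider.

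**Figure D4:**
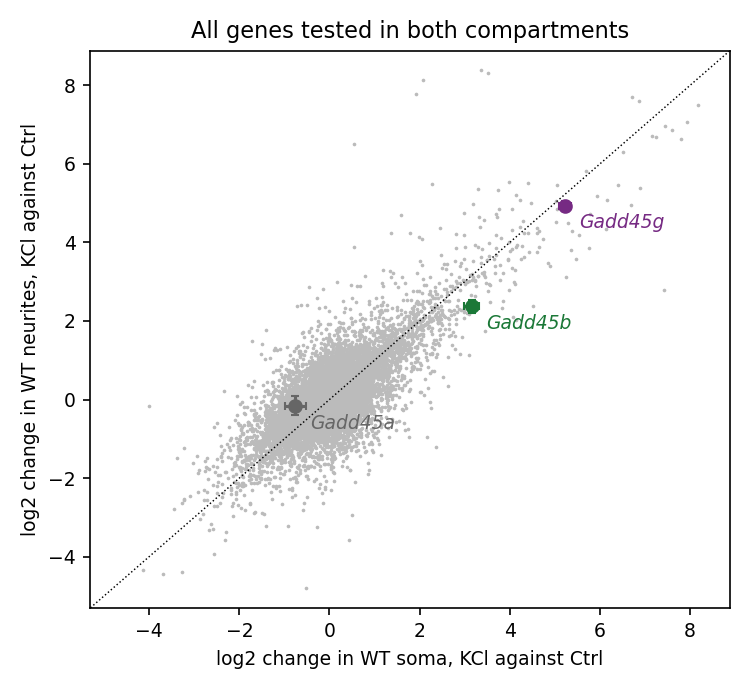
Log2 change after KCl in WT soma (horizontal axis) and WT neurites (vertical axis) for every gene tested in both (grey), with the 3 members marked and bars for their standard errors. Gadd45g (5.22 and 4.94) lies close to the dotted line of equal change, Gadd45b (3.15 and 2.37) below it, and Gadd45a (−0.76 and −0.16) near the bulk of genes.

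Among Mettl3 KO neurons, Gadd45b and Gadd45g were likewise higher in every KCl library than in every Ctrl library, but the 2 KCl-treated inserts lay further apart than those of WT and no member was called. Gadd45g measured 25.4 and 22.4 CPM in Ctrl soma and 490 and 1039 CPM in KCl-treated soma. In neurites it measured 29.0 and 38.3 CPM in Ctrl and 330 and 978 CPM after KCl. The low KCl value in each fraction is that of insert 1, the insert with the high glial and low neuronal marker sums given above, and the part of those cells in the low values was not tested.

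Gadd45b measured 28.8 and 23.9 CPM in Ctrl Mettl3 KO soma and 120 and 372 CPM after KCl. In neurites the values were 19.8 and 25.1 CPM in Ctrl and 60.0 and 210 CPM after KCl. As for Gadd45g, insert 1 was the lower of the KCl pair in both fractions. The log2 changes were 3.18 in soma and 2.51 in neurites for Gadd45b (standard errors 0.74 and 0.73, adjusted p = 0.481 and 0.737) and 4.95 and 4.20 for Gadd45g (standard errors 0.71 and 0.69, adjusted p = 0.290 and 0.381).

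Gadd45a measured 4.34 and 6.70 CPM in Ctrl Mettl3 KO soma, 4.67 and 4.19 CPM in KCl-treated soma, 4.48 and 3.67 CPM in Ctrl neurites and 6.45 and 3.43 CPM in KCl-treated neurites. The Ctrl and KCl values overlapped in both fractions. The log2 change was −0.38 in soma (standard error 0.54, adjusted p = 0.843) and 0.19 in neurites (standard error 0.53, adjusted p = 0.918). Without KCl-treated insert 1 the estimate in neurites was −0.22.

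In the fit to the 8 Mettl3 KO libraries edgeR called 0 of 23679 genes in soma (0%) and 0 of 22199 in neurites (0%), with 855 genes higher and 659 lower in soma, and 893 and 435 in neurites, at 2-fold and an unadjusted p. DESeq2 on the same libraries called Gadd45b (adjusted p = 0.00528) and Gadd45g (adjusted p = 6.47e-10) in soma and Gadd45g (adjusted p = 8.11e-07) in neurites, with 219 genes higher and 51 lower in soma and 224 and 29 in neurites. Without both libraries of KCl-treated insert 1, edgeR called Gadd45g in soma (log2 5.41, adjusted p = 0.0312) and in neurites (log2 4.88, adjusted p = 0.0467), and Gadd45b had log2 changes of 3.79 and 3.24 (adjusted p = 0.0605 and 0.110). Leaving out Ctrl soma replicate 2 as well, both genes were called in both fractions, Gadd45b at log2 3.70 and 3.24 (adjusted p = 6.74e-05 and 0.000751) and Gadd45g at 5.36 and 4.88 (adjusted p = 2.97e-06 and 8.48e-05). In these fits each KCl group has 1 library, which is assumed to vary like the other groups.

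**Figure D5:**
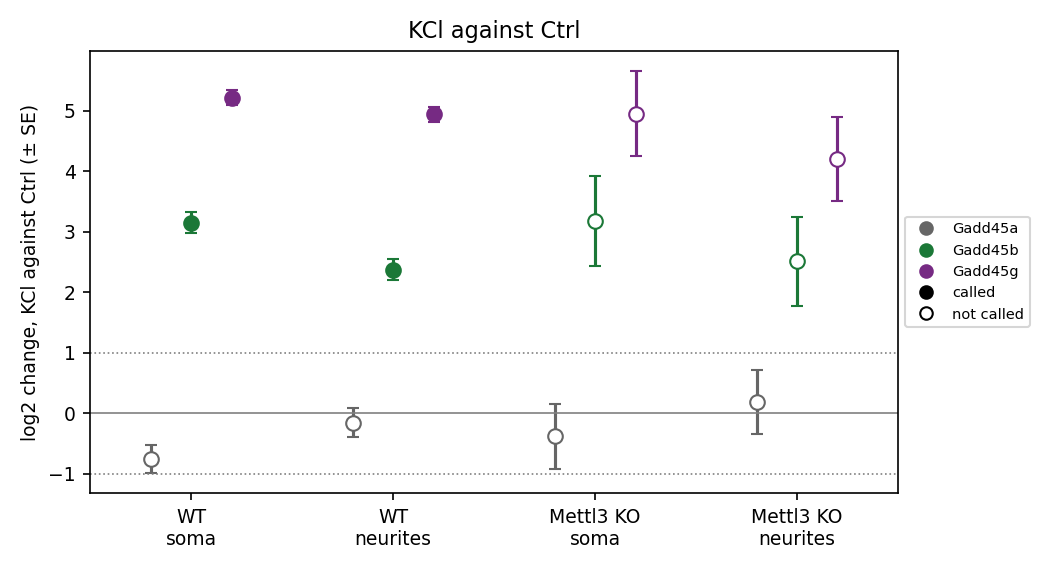
Log2 change after KCl for the 3 members by fraction and genotype, from edgeR fits within each genotype. Points are estimates, bars their standard errors, filled points are called, and dotted lines mark 2-fold. Gadd45g is between 4.20 and 5.22 and Gadd45b between 2.37 and 3.18 in all 4 contexts, with standard errors of 0.69 to 0.74 in Mettl3 KO and 0.13 to 0.17 in WT.

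The neurite-to-soma differences in Mettl3 KO neurons were not called for any member (0% of genes in Ctrl and 0% after KCl, with 883 genes higher and 356 lower in Ctrl, and 13 and 119 after KCl, at an unadjusted p, and 12 genes higher and 5 lower by DESeq2 in Ctrl). In Ctrl the log2 differences were −0.50 for Gadd45a, −0.27 for Gadd45b and 0.45 for Gadd45g, and after KCl 0.07, −0.94 and −0.30 (standard errors 0.53 to 0.70). In each KCl insert the neurite-to-soma ratio of Gadd45b was lower after KCl than in either Ctrl insert, at 0.499 and 0.564 after KCl against 0.688 and 1.05 in Ctrl. The ratio of Gadd45g was 0.674 and 0.942 after KCl and 1.14 and 1.71 in Ctrl. The log2 change in enrichment with KCl was −0.71 for Gadd45b (standard error 0.42, unadjusted p = 0.131), −0.84 for Gadd45g (standard error 0.44, unadjusted p = 0.0995) and 0.48 for Gadd45a (standard error 0.62, unadjusted p = 0.469), so none passed, against 0.238% of genes higher and 1.99% lower. Single libraries were also left out, those of KCl-treated insert 1 among them. The log2 change then ranged from −0.98 to −0.46 for Gadd45b and −1.14 to −0.57 for Gadd45g. Without Ctrl insert 1 (its soma or its neurite library) Gadd45b and Gadd45g passed the unadjusted rule, at log2 −0.98 and −1.09 (unadjusted p = 0.0256 and 0.0301 without the soma library, 0.0233 and 0.0246 without the neurite library).

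No member differed between Mettl3 KO and WT neurons in Ctrl samples by the test over the 16 libraries. WT and Mettl3 KO neurons came from different mouse lines and litters, so genotype cannot be told apart from line, litter and culture. The same limit holds for the KCl responses of the genotypes. In soma the log2 differences were 0.50 for Gadd45a, 0.65 for Gadd45b and −0.12 for Gadd45g (standard errors 0.38, 0.53 and 0.44, adjusted p = 0.754, 0.775 and 0.958). In neurites they were 0.82, 0.57 and 0.42 (standard errors 0.39, 0.53 and 0.44, adjusted p = 0.689, 0.941 and 0.950). The called share of all genes was 0.185% in soma and 0.188% in neurites. Single libraries of the soma comparison were also left out, Ctrl Mettl3 KO soma replicate 2 among them. The log2 difference in soma then ranged from 0.12 to 0.83 for Gadd45a, 0.56 to 0.75 for Gadd45b and −0.16 to −0.066 for Gadd45g. Gadd45b nevertheless lay higher in both Mettl3 KO Ctrl libraries than in both WT ones in each fraction, at 23.9 to 28.8 against 16.4 to 17.2 CPM in soma and 19.8 to 25.1 against 12.97 to 17.4 CPM in neurites. Gadd45a was likewise higher, at 4.34 to 6.70 against 3.65 to 4.16 CPM in soma and 3.67 to 4.48 against 2.10 to 2.52 CPM in neurites. Activity genes also lay higher in Mettl3 KO Ctrl samples. For Fos, Npas4, Arc, Egr1 and Nr4a1 the median log2 difference was 1.05 in soma and 0.86 in neurites. Over all genes it was 0.021 and 0.0071, and none of these activity genes was called. Fos measured 37.8 and 58.2 against 12.9 and 12.4 CPM in soma, and 41.9 and 56.2 against 19.9 and 17.3 CPM in neurites. Astrocyte markers were also higher in the Mettl3 KO Ctrl soma, at 1676 to 2241 CPM against 1007 to 1026, and oligodendrocyte lineage markers at 90.3 to 109 against 58.9 to 67.6. In Ctrl neurites neuronal markers were lower in Mettl3 KO, at 6572 to 8596 CPM against 10796 to 12948, oligodendrocyte lineage markers were higher, at 133 to 192 against 116 to 125, and astrocyte markers overlapped, at 2631 to 5965 against 1807 to 2745. The part of these shifts was not tested. The neuronal list includes Camk2a (726 to 7716 CPM over the 16 libraries) and Map2 (268 to 1847 CPM). The paper reports that loss of Mettl3 lowers the share of both mRNAs in neurites, so the neuronal sum there does not measure cell makeup alone.

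The KCl responses of the 2 genotypes differed by a log2 of −0.0023 for Gadd45b, −0.29 for Gadd45g and 0.36 for Gadd45a in soma (standard errors 0.74, 0.63 and 0.53). In neurites the differences were 0.25, −0.62 and 0.47 (standard errors 0.76, 0.63 and 0.53). None passed the test (adjusted p = 0.877 to 1.00), and 0% of all genes were called in soma or in neurites. At an unadjusted p edgeR gave 494 genes in soma and 917 in neurites, and DESeq2 called 2 genes in soma and 0 in neurites. The standard errors are as large as 0.76, so a like response is not shown. Without KCl-treated insert 1 the difference in soma was 0.63 for Gadd45b and 0.19 for Gadd45g (adjusted p = 1.00 for both).

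The lists that follow were read for calls after KCl in WT neurons, where 3.74% of all genes were called higher in soma and 3.33% in neurites. Of 10 kinase partners (MAP3K4, the MAP2Ks, p38 and JNK kinases), none was called in soma or neurites, and their median log2 change was −0.14 and 0.07, against 0.0087 and 0.013 over all genes tested. Of 4 cell cycle partners none was called in soma, and 2 rose in neurites: Pcna, the DNA polymerase clamp, by 1.02 (log2, adjusted p = 0.000608) and Ccnb1, cyclin B1, by 2.44 (adjusted p = 0.0130). Ccnb1 had 7 and 5 counts in Ctrl neurites and 38 and 28 after KCl, so it passed the filter on low counts only through the group where it is higher, and its call is no support for the list. In soma Pcna was at 0.97, just short of 2-fold (adjusted p = 0.000519). Their median was 0.71 in soma and 0.85 in neurites.

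Of 7 demethylation and repair partners, 1 rose in each fraction: Mbd4, a glycosylase that removes thymine from G:T mismatches, by 1.52 in soma and 1.22 in neurites (adjusted p = 0.00234 and 0.0146). Tet1, Tet2, Tet3 and Tdg were not called. The median of this list was 0.14 and 0.21. Gadd45gip1, named for its binding to GADD45 proteins, was at −0.04 in soma and −0.24 in neurites (adjusted p = 0.914 and 0.432).

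Among 3 other genes named for growth arrest and DNA damage, 1 rose, Ppp1r15a (Gadd34, a regulatory subunit of the phosphatase that reverses eIF2α phosphorylation), by 3.22 in soma and 3.01 in neurites (adjusted p = 1.28e-06 and 4.23e-06), and the list's median was 0.14 and 0.25. Of 9 p53 targets 2 rose in both fractions, against the same 3.74% and 3.33% of all genes. Btg2, an antiproliferative early response gene, rose by 4.27 and 3.90 (adjusted p = 1.19e-08 and 5.08e-08). Pmaip1, the BH3-only protein Noxa, rose by 1.93 and 2.12 (adjusted p = 7.05e-06 and 6.07e-06). The median of the p53 list was −0.11 in soma and 0.0084 in neurites, and Mdm2, Cdkn1a, Bax, Bbc3, Ccng1, Sesn1 and Sesn2 were not called.

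Of 9 transcription factors known to act on Gadd45 genes, 5 rose in soma and 4 in neurites (against 3.74% and 3.33% of all genes), with medians of 1.15 and 0.58. Npas4 and Egr1 are also among the activity genes taken for comparison of level, and the paper names Npas4 as induced by KCl. The list was chosen with earlier results of these data known, so the count is no independent support for the list. Npas4, a neuronal activity-dependent factor, rose by 7.94 in soma and 7.06 in neurites, Atf3, a stress-induced bZIP factor, by 6.90 and 5.38, Egr1, a zinc finger immediate early factor, by 5.04 and 4.84, and Atf4, the factor of the integrated stress response, by 2.48 and 2.64 (the largest adjusted p of these 8 values was 7.38e-07). Foxo3 rose by 1.15 in soma (adjusted p = 0.00606) and was at 0.58 in neurites (adjusted p = 0.149). Creb1, Nfkb1, Rela and Trp53 were not called in either fraction.

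The genes whose log2 CPM followed a member most closely over the 16 libraries (Pearson r among 12690 protein-coding genes whose mean count was 100 or more) are a description of shared pattern. For Gadd45b and Gadd45g the libraries fall into Ctrl and KCl clusters, so r mostly reflects the step between them. For Gadd45a the Ctrl libraries (2.10 to 6.70 CPM) and KCl libraries (1.77 to 6.45 CPM) overlap, so this reading does not hold for it. Depth and library are shared by all genes. For Gadd45g they were Cwc25 (0.994), Nr4a1 (0.993), Klf4 (0.993), Nr4a2 (0.993) and Arc (0.991), and over the 8 WT libraries Btg2, Cwc25, Zbtb21, Pard6a and Nr4a1 (0.998 to 0.999). For Gadd45b they were Rasl11a (0.979), Egr1 (0.978), Csrnp1 (0.977), Usp38 (0.977) and Atf3 (0.976), and over the WT libraries Rasl11a, Prkx, Rasgef1b, Sap18 and Ccnk (0.994 to 0.995). Gadd45b and Gadd45g had an r of 0.939 with each other over 16 libraries and of 0.974 over 8. For Gadd45a the nearest were Yipf3 (0.931), Prkab1 (0.930), Ythdf2 (0.927), Pef1 (0.923) and Tmem251 (0.915), and over the WT libraries Mfn1, Map3k3, Fam120b, Nfs1 and Slc35b3 (0.951 to 0.974). Its r with Gadd45g was −0.29 over 16 libraries and −0.55 over 8.

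Of the 3 members only Gadd45g had sites in the authors' DART-seq list, 2 of 18231, both in a RAC context (purine, A, C). In DART-seq, APOBEC1 fused to the m6A-binding YTH domain edits the C after the methylated A, and the value of a site is the fraction of reads with the edit, averaged by the authors over libraries. The sites are shown with RAC in capitals, from GRCm38.p6, plus strand, chr13:51847681-51847701 (edited C at 51847691) and chr13:51848452-51848468 (edited C at 51848462).
Gadd45g coding exon: gcgtgggaGACgtgcagaggc
Gadd45g 3′UTR: tcacaataAACttattg
The first is in a coding exon and the second in the 3′UTR, 6 bases before the annotated end of the gene, where the window also ends. Their deposited editing fractions were 0.472% and 1.65%, which ranked 18157 and 14973 of the 18231 sites from the highest down.

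The authors' score of an RNA sums the editing at its sites. For Gadd45g it was 0.0121 in WT and 0.00465 in Mettl3 KO neurons, and 0.00706 in soma and 0.0221 in neurites. The median WT score over 5643 RNAs was 0.103, and 2.39% of RNAs had a score lower than that of Gadd45g. These are the authors' averages over libraries, so there is no spread between replicates and no test. The methods set a minimum of reads and of edits for a site in a sample, but the depth itself is not part of the values used here. The average at the coding site lies under the lower editing limit that those methods name for calling a site. The paper's supplement describes site averages over all WT or all Mettl3 KO samples, and soma and neurite averages that pool Ctrl and KCl samples. The WT score of Gadd45g is lower than the sum of its 2 deposited site values, and which libraries the deposited site values cover was not settled here. Gadd45a and Gadd45b have no entry in either list, so their editing is not analysed here.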

How the data were processed

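The authors trimmed the paired reads with Flexbar, aligned them to mm10 with STAR 2.7.7a and counted fragments over exons with featureCounts 2.0.1 (Ensembl release 97, reads with several places counted). The deposited values are raw counts per gene without normalization, and the deposited exon length is in bases. The deposited DART-seq fraction of a site and the score of an RNA are the authors' averages over libraries. The deposited tables of neurite enrichment hold the authors' own comparisons, and only their gene symbols and biotypes were used.

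Counts were fitted in edgeR 4.0.16 (R 4.3.3) with TMM scaling and two-sided quasi-likelihood F-tests, p being adjusted by Benjamini-Hochberg, with 1 coefficient per group, on genes whose mean count over the compared libraries reached 10. The 37 mitochondrial genes, at 0 in every library, were left out. KCl and neurite comparisons used the 8 libraries of 1 genotype, because the replicates of Mettl3 KO differ more. Comparisons of genotypes used 16. All 3 members passed the filter in every comparison. The simulated data used to test the scripts are not quoted. Gene places are from GENCODE M21 (GRCm38), a neighbouring release of the annotation that the authors counted on. Alignments of coding sequences used Biopython 1.88, and FPKM uses TMM-scaled totals.

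The study's methods take duplicates from distinct litters, Ctrl and KCl neurons from 1 litter, and soma and neurites from 1 insert. They do not mention replicate numbers, and equal numbers were assumed here to mark the same litter and insert. In the values, the deviations of same-numbered soma and neurite libraries correlated at −0.14 (WT Ctrl), 0.015 (WT KCl), 0.072 (Mettl3 KO Ctrl) and 0.90 (Mettl3 KO KCl), over 15170 genes. P-values rest on the spread between the 2 replicates of each group, pooled over the groups of a fit and shared in part between genes. Apart from the change in neurite enrichment, the main fits had no term for insert or litter, so libraries of 1 insert were treated as independent.

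The genes named are the members, Mettl3, the members of the partner and factor lists called in WT, and the 5 genes most correlated with each member. Other genes of the lists are named where they were not called. The members and lists were chosen with earlier results of these data known. Alternatives covered scaling, filter, tool, libraries in the fit, replicate block and each library left out. Fits without the Mettl3 KO libraries that stand apart and with crossed WT Ctrl numbers were chosen after the data were seen.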

Additional observations from a re-analysis of the deposited data

Results flagged for a closer look

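The KCl response of Gadd45b was smaller in neurites than in soma of WT neurons, a difference between the 2 fractions that was tested in itself, with a log2 of −0.78 (edgeR, standard error 0.19, unadjusted p = 0.00285, n = 2 inserts per treatment). KCl raised the gene 8.89-fold in soma and 5.18-fold in neurites, and the neurite-to-soma ratio was lower in both KCl inserts than in both Ctrl inserts. The difference failed the correction over 23200 genes (adjusted p = 0.999). It was not particular to Gadd45b. Of 5 activity genes taken for comparison, 3 were lower by the same unadjusted rule, with a median of −0.74 over the 5. The paper reports that, over RNAs, the KCl change in neurite enrichment correlated negatively with the change in soma expression.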

How the results depend on the processing

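The rise of Gadd45b and Gadd45g after KCl in WT soma was called under every alternative, and in WT neurites under every one but the fit with 16 libraries, which called 1 member. In Mettl3 KO soma 2 members were called without a filter on low counts, by DESeq2, with 16 libraries and without the 3 libraries that stand apart, and 1 without KCl-treated insert 1. In Mettl3 KO neurites 2 were called without a filter and without the 3 libraries, and 1 by DESeq2, with 16 libraries and without insert 1. With 16 libraries 0 members differed between WT neurites and soma in Ctrl or KCl, and leaving out single libraries gave 0 to 1 in each. The change in neurite enrichment in WT called 0 members at an adjusted p and 0 to 1 with single libraries left out, and in Mettl3 KO 1 with 16 libraries and 0 to 2 with single libraries left out.

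Directions turned only among estimates that were not called. With single libraries left out, Gadd45a ranged from −0.34 to 0.027 for KCl in WT neurites, −0.74 to 0.025 in Mettl3 KO soma and −0.31 to 0.40 in Mettl3 KO neurites (−0.22 without insert 1 and −0.22 without the 3 libraries). Between Mettl3 KO neurites and soma the ranges were −0.45 to 0.0013 for Gadd45b in Ctrl, and after KCl −2.15 to 0.13 for Gadd45b, −1.32 to 0.38 for Gadd45g and −0.35 to 0.46 for Gadd45a (−0.27 without insert 1 and −0.27 without the 3 libraries). The change in enrichment of Gadd45a in Mettl3 KO ranged from −0.028 to 0.98. The genotype difference of Gadd45b in soma was 0.0071 with RLE scaling, 0.031 without a filter, 0.0071 by DESeq2, 0.013 with the libraries of the comparison alone, 0.63 without insert 1, 0.53 without the 3 libraries and −1.04 to 0.60 with single libraries left out. In neurites it was −0.026 by limma voom with 1 weight per genotype and −0.92 to 0.88. That of Gadd45g in soma was 0.19 without insert 1, 0.13 without the 3 libraries and −0.94 to 0.15, and that of Gadd45a in neurites −0.11, −0.11 and −0.068 to 0.85. The cause of these turns was not tested.

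With a replicate block the number of members called was the same in every comparison, with 850 genes higher and 653 lower after KCl in WT soma. Without the block 1 member, Gadd45b, had a change in enrichment in WT, and with the WT Ctrl numbers crossed it had a log2 of −0.78, with 495 genes higher and 392 lower. With 16 libraries KCl raised 320 and lowered 21 genes in WT soma, against 899 and 712, and raised 240 and lowered 23 in WT neurites, against 734 and 375. The change in enrichment in Mettl3 KO without the 3 libraries was not run, since no residual degrees of freedom remain, and Gadd45a had no value for KCl in WT neurites at a mean count of at least 100. With 2 libraries per group and the wide spread of Mettl3 KO, even the log2 change of 4.95 of Gadd45g in Mettl3 KO soma was not called, so a missing call there does not bound a change.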

Other observations

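E230016M11Rik, the gene that overlaps Gadd45a on the opposite strand, had a log2 change after KCl of 0.12 in WT soma and 0.19 in WT neurites (edgeR adjusted p = 0.721 and 0.570), and was not called in either. Between WT Ctrl neurites and soma, where Gadd45a was called at −0.85, E230016M11Rik was at −0.41 (edgeR adjusted p = 0.109) and was not called. It had 251 to 793 counts per library. The activity genes taken for comparison of level all rose in both fractions of WT neurons, Fos by 7.80 in soma and 6.63 in neurites and Nr4a1 by 7.61 and 6.87 (log2, edgeR adjusted p of at most 1.73e-08), and the log2 change of each of the 5 was lower in neurites than in soma. By the rule used for the change in neurite enrichment (1.5-fold, with an unadjusted p no higher than 0.05), 3 of the 5 were lower, Fos at −1.17, Npas4 at −0.81 and Nr4a1 at −0.74, and Arc and Egr1 were not called, at −0.43 and −0.18. The median of the 5 was −0.74, beside −0.78 for Gadd45b, and none passed at an adjusted p (edgeR, 0.938 or higher).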
